A study of Rattus norvegicus with 2 samples.

Results

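The 10 genes of acute inflammation described here were measured in rat skeletal muscle: the chemokines Ccl2, Ccl7, Ccl3, Ccl4, Cxcl1 and Cxcl2, the cytokines Il6, Il1b and Tnf, and the acute phase gene Lcn2. They were found by gene symbol in the probe annotation of the array, and all 10 of 10 had a probe, among 13337 named genes in all. Each of the 10 was measured by 1 probe. The muscle came from male Wistar rats, 8 to 10 weeks old, in which streptozotocin, which destroys the beta cells of the pancreas, had caused diabetes. One sample was labelled EA, for electroacupuncture, a current passed through acupuncture needles, and the other was labelled Mock. For both samples the labels give the same protocol, needles at the ST36 point for 5 min and then 60 min of stimulation at 15 Hz and 10 mA. What the Mock rats received, which muscle was taken, when it was taken and how many rats stood behind each sample are not stated in the labels.

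Chemokines are small secreted proteins that draw leukocytes along a gradient into tissue. Those of the CC class, such as Ccl2, mainly attract monocytes and lymphocytes, and those of the CXC class, such as Cxcl1, mainly attract neutrophils. Tnf and Il1b are early cytokines that activate the transcription factor NF-kappaB in the cells around them, and NF-kappaB in turn drives transcription of many chemokine genes and of Il6. In skeletal muscle, Il6 is also known as a cytokine that fibres release during contraction.

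RNA was hybridised to Illumina bead arrays with 1 colour, 1 array for the EA sample and 1 for the Mock sample. There is no replicate, so no difference below has a standard error or a p-value, the number of arrays limits the precision, and the effect of electroacupuncture cannot be told apart from other ways in which the samples differed. The detection p-value printed below is the deposited value for whether a probe stood above background on that array. It moved in steps of 0.00121, and a probe was called detected under 0.01. On the EA array 32.1% of 22523 probes were detected, against 30.7% on the Mock array. The background level, taken as the signal at which the detection p lay next to 0.5, was 122 for the EA array and 117 for the Mock array, and the lowest detected signal was 160.3 for the EA array and 154 for the Mock array. Of the 13 markers of muscle fibres with a named probe, 13 were detected on both arrays, among them the muscle creatine kinase Ckm and the skeletal actin Acta1. The slow myosin Myh7 differed by -3.60 (log2, EA minus Mock), the 1 marker of the 13 that was 2-fold lower. The myosins Myh2 and Myh4 differed by -0.99 and 0.70, and the myoglobin gene Mb by -0.45. Of the 13, 6 lay above 0. What part these differences had in the results below was not tested.

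Of the 10 genes, 4 were detected on the EA array only, and these were Ccl2, Ccl7, Cxcl1 and Lcn2. The other 6 were detected on neither array, and none was detected on the Mock array. Among all named genes, 3.09% were detected on the EA array only, 1.36% on the Mock array only and 57.7% on neither, so the 6 undetected of 10 were near the share over all genes. The genes were chosen by their signals and detection p-values on these same arrays, so the count of 4 describes the choice and carries no test. A gene detected on 1 array only has no fold change but a lower bound, its signal on the bright array divided by the greater of 2 values of the dim array, the probe's own signal and that of the dimmest detected probe, after background correction, quantile normalization and log2. By that bound the 4 genes reached 2-fold. Their direction was fixed by detection on the EA array only, and the other 6 have no fold. Of the 5641 genes detected on at least 1 array, 2.3% were at 2-fold higher in EA muscle and 0.585% at 2-fold lower.

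**Figure D1:**
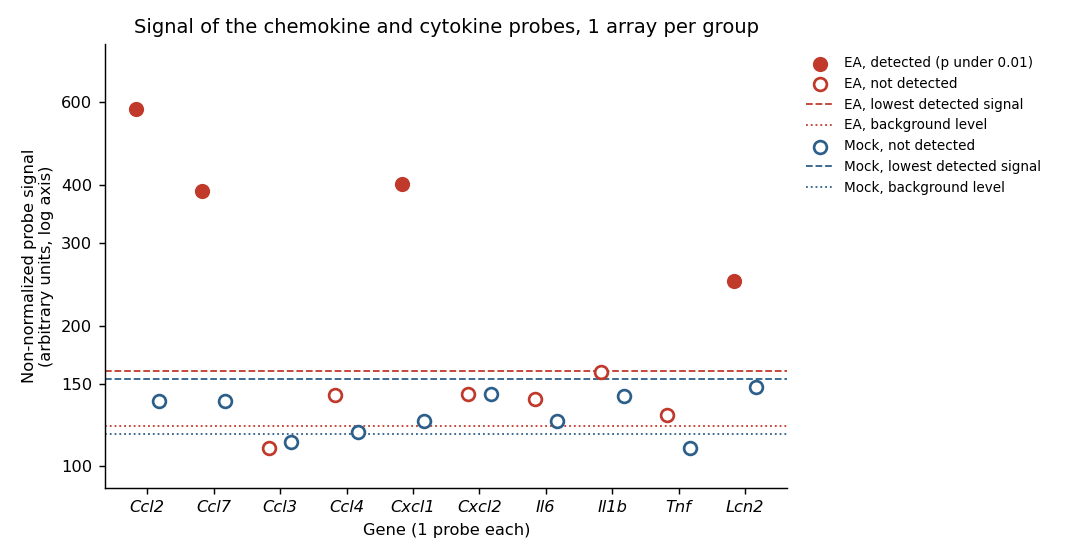
Non-normalized signal (log axis) of the probe for each gene on the EA array (red) and the Mock array (blue), with filled points for detected probes, dashed lines at the lowest detected signal and dotted lines at the background level of each array. The 4 filled points are Ccl2, Ccl7, Cxcl1 and Lcn2 on the EA array, and every Mock point lies under the dashed Mock line.

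Ccl2, also called MCP-1, binds the receptor CCR2 and recruits monocytes. Its probe gave a signal of 580.1 on the EA array, with a detection p of 0, and of 138 on the Mock array, with a detection p of 0.0715. After normalization the log2 values were 8.85 in EA muscle and 5.32 in Mock muscle, where the lowest detected probe lay at 5.79. Ccl2 was therefore higher in EA muscle by at least 8.37-fold in the usual processing and by at least 3.55-fold without background correction. On the Mock array its signal stood 21.0 units above the background level, within the range of probes not called detected, while on the EA array it stood 458 units above.

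Ccl7, or MCP-3, is a close relative of Ccl2 that also recruits monocytes, and in the RefSeq gene order the genes are direct neighbours on chromosome 10. The Ccl7 signal was 388 on the EA array, with a detection p of 0, against 138 on the Mock array, with a detection p of 0.0727. It was higher in EA muscle by at least 4.96-fold in the usual processing and by at least 2.37-fold without background correction. Both neighbours were thus detected on the EA array and not on the Mock array. Since the genes are paralogs and the probe sequences were not used here, whether each probe sees only its own transcript was not tested.

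Ccl3 and Ccl4, the macrophage inflammatory proteins 1-alpha and 1-beta, attract monocytes and other leukocytes and also lie side by side on chromosome 10, with 33 protein-coding genes between Ccl7 and Ccl3. Neither was detected. The Ccl3 signal was 110 on the EA array, with a detection p of 0.858, and 113 on the Mock array, with a detection p of 0.646, so both lay under the background level of their array. Ccl4 gave 142 on the EA array, with a detection p of 0.0848, and 119 on the Mock array, with a detection p of 0.452. The Ccl4 signal was nominally higher on the EA array, but a signal in that range was not distinguishable from background on either array and no fold is given.

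Cxcl1 and Cxcl2 both act on the neutrophil receptor CXCR2, are likewise neighbours, on chromosome 14, and gave different results. Cxcl1, known in the rat as CINC-1, had a signal of 401 on the EA array, with a detection p of 0, against 125 on the Mock array, with a detection p of 0.248. It was higher in EA muscle by at least 5.17-fold in the usual processing and by at least 2.44-fold without background correction. Cxcl2, or MIP-2, had a signal of 142.5 on the EA array, with a detection p of 0.0788, and of 142.7 on the Mock array, with a detection p of 0.04. Cxcl2 was therefore detected on neither array under 0.01, and under 0.05 it counts as detected on the Mock array only. As for Ccl2 and Ccl7, whether the Cxcl1 and Cxcl2 probes each see only their own transcript was not tested.

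Among the cytokines, Il1b came closest to detection. This product of activated macrophages gave 159 on the EA array, with a detection p of 0.0109, just outside the threshold, and 141 on the Mock array, with a detection p of 0.0448. Taken as detected on both arrays at a threshold of 0.05, Il1b differed by 0.22 (log2, EA minus Mock). That is less than the scatter of 0.25 (SD per probe, log2) found between 60 pairs of probes for the same gene. Those probes were detected on both arrays under 0.01, unlike that of Il1b, and their scatter does not measure scatter between samples. Il6 gave 139.5 on the EA array, with a detection p of 0.102, and 125 on the Mock array, with a detection p of 0.248. Tnf gave 129 on the EA array, with a detection p of 0.298, and 109 on the Mock array, with a detection p of 0.76. Over the 6 genes detected on neither array, signals ran from 110 to 159 on the EA array and from 109 to 143 on the Mock array, and 4 of the 6 were nominally higher on the EA array. Transcript under the detection limit of the arrays cannot be told from none.

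Lcn2, lipocalin 2, is an iron-scavenging protein stored by neutrophils and induced in many cells by interleukin 1 and interleukin 6. Its signal was 249 on the EA array, with a detection p of 0.00121, and 148 on the Mock array, with a detection p of 0.0206. That Mock signal came near the lowest detected Mock signal of 154. It was higher in EA muscle by at least 2.44-fold. With detection called under 0.05 Lcn2 counts as detected on both arrays, and the fold was then 2.72. The bound was under 2-fold in 3 other settings, at 1.5-fold without background correction, 1.74-fold with the authors' deposited values and 1.89-fold with an offset of 50 in place of 16 after background correction.

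**Figure D2:**
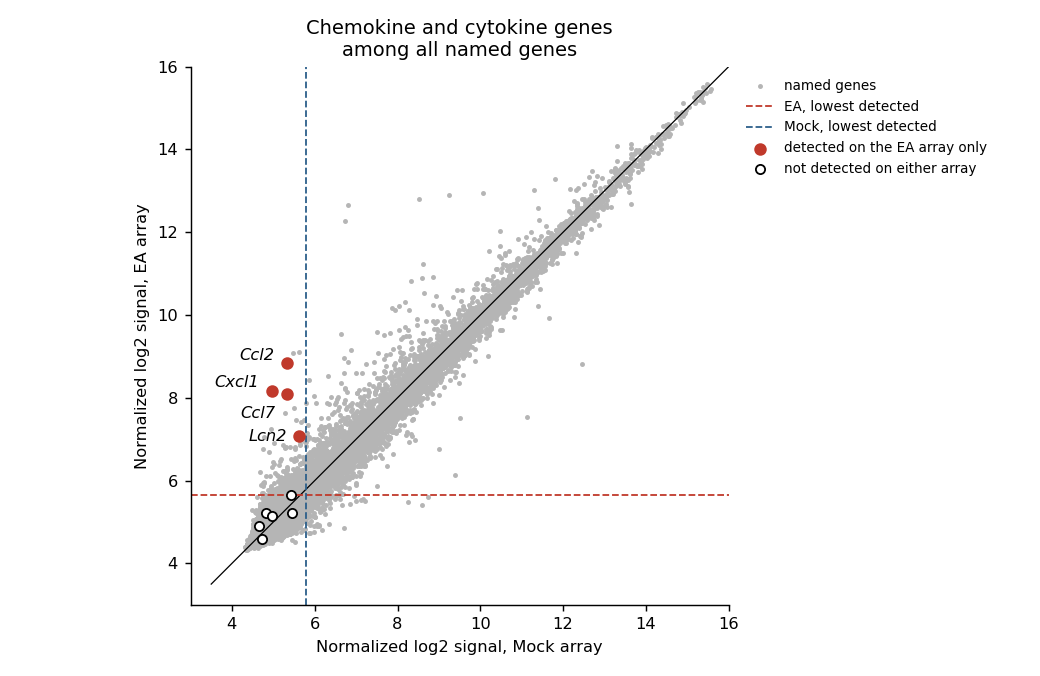
Normalized log2 signal of 13337 named genes (grey) on the EA array (vertical axis) against the Mock array (horizontal axis), with dashed lines at the lowest detected value on each array and a line of equality. Red points mark Ccl2, Ccl7, Cxcl1 and Lcn2, above the EA limit and left of the Mock limit, and the 6 open points lie under both limits.

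The size of the bounds depended on how background was handled. Without background correction they were at least 3.55-fold for Ccl2, 2.37-fold for Ccl7, 2.44-fold for Cxcl1 and 1.5-fold for Lcn2. With the authors' deposited values they were 4.06-fold for Ccl2, 2.76-fold for Ccl7, 2.85-fold for Cxcl1 and 1.74-fold for Lcn2. In those deposited values Ccl2 stood at 881 in EA muscle and 166 in Mock muscle, and Ccl7 at 599 in EA muscle and 166 in Mock muscle. Cxcl1 stood at 619 in EA muscle and 133 in Mock muscle, and Lcn2 at 378 in EA muscle and 199.9 in Mock muscle. Ccl2, Ccl7 and Cxcl1 stayed above 2-fold in all 6 alternatives.

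**Figure D3:**
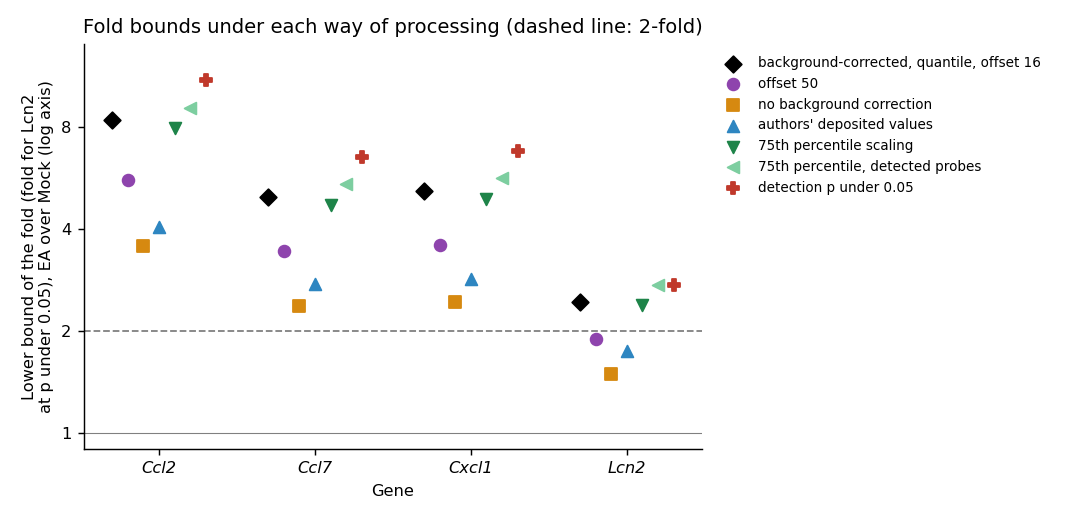
Lower bound of the fold, EA over Mock (log axis), for Ccl2, Ccl7, Cxcl1 and Lcn2 under each way of processing, with a dashed line at 2-fold. The black diamonds are the values used throughout, 8.37, 4.96, 5.17 and 2.44, and Lcn2 is the gene with points under the line; its point at a detection p under 0.05 is a fold between values detected on both arrays.

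To show the sequence near the start of genes with differing detection, the bases before 4 of the starts are given below, for Ccl7, Cxcl1 and Lcn2, detected on the EA array, and for Cxcl2, the undetected neighbour of Cxcl1. The sequences are from RefSeq, build GRCr8, whose promoter table matched 7 of the 10 genes and has no entry used here for Ccl2, Ccl3 and Ccl4. Each run is the 250 bases before the start on the strand of the gene, 5′ to 3′. Capitals mark matches, on either strand, to the kappaB consensus, to the AP-1 motif TGANTCA, to the C/EBP motif TTGCNNAA and to the TATA box TATAAA. Ccl7 lies on the plus strand at chr10:67513845-67514094, Cxcl1 on the minus strand at chr14:17479322-17479571, Cxcl2 on the minus strand at chr14:17467256-17467505 and Lcn2 on the minus strand at chr3:36081781-36082030.
Ccl7: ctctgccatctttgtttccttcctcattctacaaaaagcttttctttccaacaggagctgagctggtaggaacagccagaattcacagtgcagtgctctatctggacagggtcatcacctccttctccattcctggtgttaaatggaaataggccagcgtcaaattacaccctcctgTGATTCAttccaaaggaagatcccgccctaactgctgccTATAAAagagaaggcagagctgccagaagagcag
Cxcl1: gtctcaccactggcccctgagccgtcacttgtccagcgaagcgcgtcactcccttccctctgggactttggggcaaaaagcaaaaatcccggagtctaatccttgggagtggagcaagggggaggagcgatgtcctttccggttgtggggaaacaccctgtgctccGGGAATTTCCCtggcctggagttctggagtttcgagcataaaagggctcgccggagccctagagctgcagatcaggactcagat
Cxcl2: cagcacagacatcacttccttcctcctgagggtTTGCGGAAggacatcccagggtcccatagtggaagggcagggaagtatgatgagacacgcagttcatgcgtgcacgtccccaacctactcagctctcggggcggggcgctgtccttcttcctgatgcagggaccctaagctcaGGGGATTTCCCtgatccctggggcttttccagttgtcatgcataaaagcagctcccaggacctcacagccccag
Lcn2: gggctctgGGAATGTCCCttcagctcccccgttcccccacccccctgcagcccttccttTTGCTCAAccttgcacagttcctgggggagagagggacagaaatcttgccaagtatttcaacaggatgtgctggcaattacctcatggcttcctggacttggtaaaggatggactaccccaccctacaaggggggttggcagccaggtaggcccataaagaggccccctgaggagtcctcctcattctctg

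A kappaB match, the binding sequence of NF-kappaB, was found in 4 of the 7 promoters, Cxcl1, Cxcl2, Il6 and Lcn2, and in 3.54% of 33469 rat promoters of the same length. In Cxcl1 the match began 84 bases before the start and read GGGAATTTCC, and an overlapping match lay on the other strand. In Cxcl2 it began 74 bases before the start and read GGGGATTTCC, with overlapping matches on both strands. The Il6 match began 68 bases before the start, while that of Lcn2 lay further away, 242 to 233 bases before the start, on the opposite strand. The neighbours Cxcl1 and Cxcl2 therefore both held the letters at a like distance, although Cxcl1 alone was detected. A C/EBP match was found in Cxcl2, Il6 and Lcn2, against 9.22% of all promoters. An AP-1 match, the sequence bound by Fos and Jun proteins, was found in Ccl7 and in no other of the 7, 73 bases before the start, against 6.34%. A TATAAA match was found in Ccl7, Il1b and Tnf, against 12.9%. These are letter matches and say nothing of binding in this muscle.

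**Figure D4:**
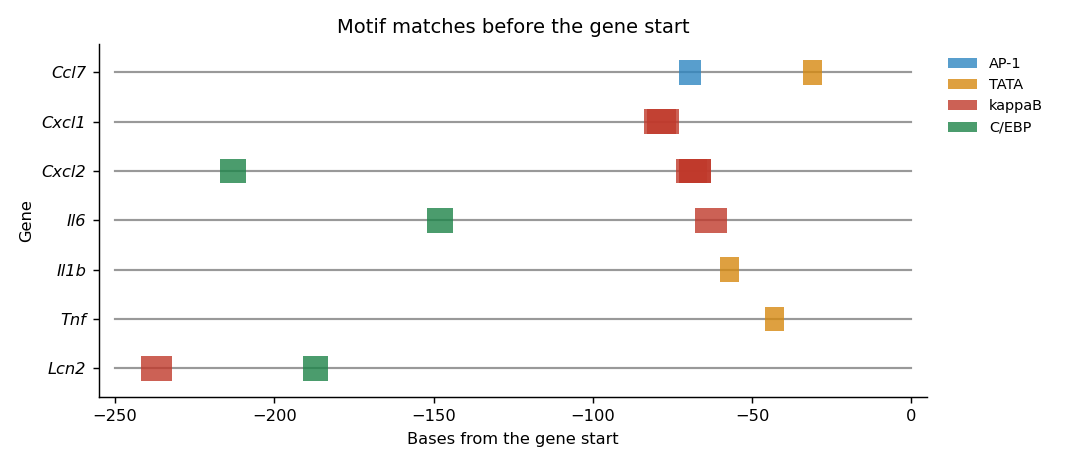
Positions of motif matches in the 250 bases before the start of 7 genes, in bases from the start (horizontal axis), coloured by motif. The kappaB matches of Cxcl1, Cxcl2 and Il6 sit between 84 and 59 bases before the start, and that of Lcn2 sits 242 to 233 bases before it.

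Of all named genes, 412 were detected on the EA array only, and 25 of these (6.07%) had a bound of at least 2-fold, Ccl2, Ccl7, Cxcl1 and Lcn2 among them. The median bound over those with one above 1 was 1.16-fold, and for 135 no bound above 1 could be given. The 5 other genes with the highest bounds were Ier2, Atf3, Slc5a3, Pxmp4 and Smpd3. Ier2, an immediate early gene, had a signal of 676 in EA muscle and 148 in Mock muscle, a bound of 10.1-fold. Atf3, a stress-induced transcription factor, had 665 in EA muscle and 143 in Mock muscle, a bound of 9.84-fold. The bounds of the other three were 3.89-fold for Slc5a3, a myo-inositol transporter, 3.62-fold for Pxmp4, a peroxisomal membrane protein, and 3.18-fold for Smpd3, a neutral sphingomyelinase. Likeness here means the same detection pattern over 2 samples, and bounds do not rank the true folds. The Mock detection p of these 5 genes was 0.023 (Ier2), 0.0388 (Atf3), 0.0352 (Slc5a3), 0.0764 (Pxmp4) and 0.0121 (Smpd3). Under 0.05 all of them but Pxmp4 therefore count as detected on both arrays, whereas Ccl2, Ccl7 and Cxcl1 do not. If background was left uncorrected, the bounds of Pxmp4 and Smpd3 fell under 2-fold, to 1.91 and 1.75. Those of Ier2, Atf3 and Slc5a3 were then 4.13, 4.06 and 2.00.

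The rest of the chemokine family did not show bounds or differences of that size. Of 29 further ligands, 26 had a named probe, 6 were detected on both arrays, 1 on the EA array only, 3 on the Mock array only and 16 on neither. No ligand reached 2-fold in either direction. The median of the 6 was 0.51 (log2, EA minus Mock), against -0.06 over all 5047 genes detected on both arrays, and 5 of the 6 lay above 0, against 41.2% of those 5047 genes. The highest was Cxcl9, an interferon-induced ligand that attracts T cells, with 397 in EA muscle and 253 in Mock muscle, a difference of 0.83. The lowest was Ccl25, a ligand of lymphocytes of the gut, at -0.26. Cxcl12, which holds CXCR4-bearing cells in tissue, differed by 0.44, and the platelet chemokine Pf4 by 0.46. Ccl5, a T cell attractant, was detected on the Mock array only, with 159 in EA muscle and 170.0 in Mock muscle, and its bound was -0.52. Its detection p on the EA array, 0.0109, lay just outside the threshold, and under 0.05 Ccl5 counts as detected on both arrays. Without background correction the bound was -0.20. Cxcl3 and Cxcl6, further chemokines of the CXC class, and Ccl12, a further CC chemokine, were detected on neither array.

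Of 19 receptors and decoys of the 10 genes, 13 had a named probe, 3 were detected on both arrays, 1 on the EA array only and 9 on neither, beside 57.7% on neither over all named genes. Il6r, the interleukin 6 receptor, was highest at 0.73, with 207 in EA muscle and 155 in Mock muscle at a detection p of 0.0097. Ccr1, a receptor of Ccl3 and Ccl7, differed by 0.61, and Tnfrsf1a, the main receptor of Tnf, was lowest of the 3 at 0.44. Ccr2, the receptor of Ccl2 and Ccl7, gave 137 in EA muscle and 131 in Mock muscle and was detected on neither. The same held for Cxcr2, the receptor of Cxcl1, with 138 in EA muscle and 133 in Mock muscle, and for Il1r1, the receptor of Il1b, with 122 in EA muscle and 117 in Mock muscle. None of the receptors reached 2-fold.

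Genes of the NF-kappaB pathway, of its feedback and of its adhesion targets lay on both sides of 0. Of 28 listed, 22 had a named probe, 9 were detected on both arrays, 2 on the EA array only and 11 on neither, and none reached 2-fold. The median of the 9 was -0.05, beside -0.06 over all genes detected on both arrays, and became 0.04 with the arrays scaled to the 75th percentile of the probes detected on both. Nfkbia, which encodes the inhibitor I-kappaB-alpha and is itself induced by NF-kappaB, had 2653 in EA muscle and 2285 in Mock muscle, a difference of 0.20. Zfp36, which speeds the decay of cytokine messages, was highest at 0.39, and Birc3, an inhibitor of apoptosis, was lowest at -0.81. The adhesion genes Icam1 and Vcam1, which let leukocytes stick to endothelium, were detected on the EA array only, with bounds of 0.17 and 0.13. Their detection p on the Mock array was 0.509 for Icam1 and 0.0133 for Vcam1, so under 0.05 Vcam1 counts as detected on both arrays. Sele and Selp, the endothelial selectins, were detected on neither.

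In interleukin 6 signalling and the acute phase, 21 of 24 genes had a named probe, of which 6 were detected on both arrays, 1 on the EA array only and 14 on neither. The median of the 6 was 0.18. The inhibitor of matrix metalloproteases Timp1 was the 1 gene at 2-fold, with 322 in EA muscle and 190.5 in Mock muscle, 2.19-fold higher by the usual processing and 1.56-fold without background correction. The kinases Jak1 and Jak2 differed by 0.64 and 0.39, and the transcription factor Stat3, which acts downstream of them, was lowest at -0.24. Socs3, the feedback inhibitor that Stat3 induces, gave 126 in EA muscle and 119 in Mock muscle and was detected on neither. Of the liver-type acute phase genes, Hp, Orm1, A2m, Fgb and Crp were likewise detected on neither.

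Of 32 other cytokines and inflammatory enzymes, 30 had a named probe, 7 were detected on both arrays, 2 on the EA array only and 21 on neither. Both genes at 2-fold were higher on the EA array. Ptgs2, the inducible cyclooxygenase COX-2, had 248 on the EA array, with a detection p of 0.00121, and 116 on the Mock array, with a detection p of 0.525, a bound of 2.41-fold. Csf1, the growth factor of macrophages, had 244 in EA muscle and 156 in Mock muscle, 2.25-fold higher. That Mock signal, at a detection p of 0.0097, came near the lowest detected Mock signal of 154. Without background correction the values were 1.49-fold for Ptgs2 and 1.44-fold for Csf1, and with the authors' deposited values 1.72-fold and 1.66-fold. The median of the 7 was 0.31, and the lowest was the inflammasome protease Casp1 at -0.06, which turned to 0.12 with the arrays scaled to the 75th percentile of the probes detected on both. Il1a, Csf2, Csf3, Il10 and Nos2 were detected on neither array.

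**Figure D5:**
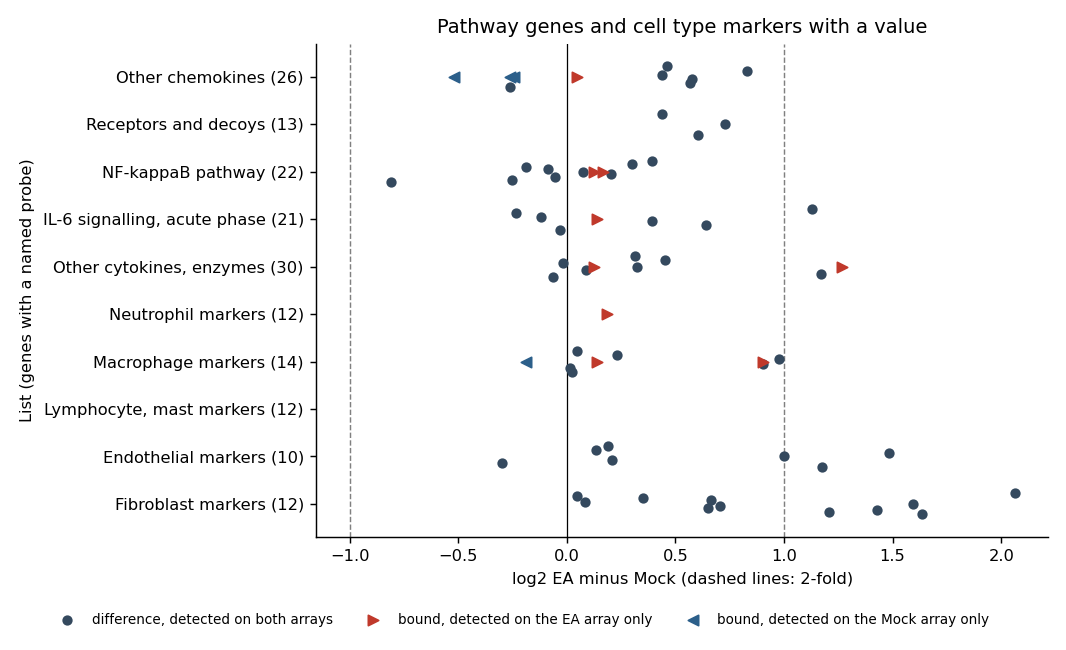
Difference (dark points, genes detected on both arrays) or bound (triangles, genes detected on 1 array) of each gene with a value in the lists shown, as log2 EA minus Mock, with the number of genes with a named probe in parentheses and dashed lines at 2-fold. Genes past the right line are Timp1, Csf1 and Ptgs2 among the signalling lists and 3 endothelial and 5 fibroblast markers, and no gene shown lies past the left line.

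The muscle was measured whole, so more cells of a type and more RNA per cell cannot be told apart. Neutrophil markers stood at or near background on both arrays. Of 12 with a named probe, 11 were detected on neither array, beside 57.7% of all named genes. Among the 11 were S100a9, Mpo, Elane and Csf3r, and S100a8 was detected on the EA array only with a bound of 0.18. Summed over the 12 probes, the non-normalized signal above background was 106 in EA muscle and 68.4 in Mock muscle, sums with the same limit as those for lymphocytes below. Of 14 macrophage and monocyte markers, 6 were detected on both arrays, 2 on the EA array only, 1 on the Mock array only and 5 on neither. Their summed non-normalized signals above background were 1936 in EA muscle and 1224 in Mock muscle. The median of the 6 detected on both arrays was 0.14. Among these, the complement genes C1qc and C1qb were highest at 0.98 and 0.90. C1qa was lowest at 0.01 (-0.06 with the arrays scaled to the 75th percentile). Between them lay Cd74 at 0.23, Laptm5 at 0.05 and Aif1 at 0.03. The mannose receptor Mrc1, of resident macrophages, and Cd14 were detected on the EA array only, with bounds of 0.90 and 0.14. Tyrobp was detected on the Mock array only, with a bound of -0.19. Under 0.05, Cd14 and Tyrobp count as detected on both arrays. Ptprc, Itgam, Cd163 and Adgre1 were detected on neither. Of 12 lymphocyte and mast cell markers, 1 was detected, the mast cell protease Cpa3 on the EA array only, and 11 were detected on neither array. The summed signals above background were 60.1 in EA muscle and 4.03 in Mock muscle. Sums over probes that were mostly not detected move with the background level taken for each array, so no ratio is drawn from them.

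Markers of endothelial cells and fibroblasts also differed. Over the 5047 genes detected on both arrays, the median was -0.06 (log2, EA minus Mock) and 2.08% were 2-fold higher in EA muscle. Of 10 endothelial markers, 7 were detected on both arrays, with a median of 0.21, and 3 were at 2-fold: Sox17 at 1.48, the tight junction gene Cldn5 at 1.17 and Esam at 1.00. The lowest was Egfl7 at -0.30. Summed non-normalized signals above background were 2174 in EA muscle and 1178 in Mock muscle, where Cldn5 alone had signals of 1048 and 501. Of 12 fibroblast markers, 11 were detected on both arrays, with a median of 0.71, and 5 were at 2-fold, led by the matrix gene Postn at 2.06, while Pi16 was lowest at 0.05 (-0.03 with the arrays scaled to the 75th percentile). The summed non-normalized signals above background were 20754 in EA muscle and 11294 in Mock muscle. Bright probes weigh most in such sums: Dcn gave 9309 in EA muscle and 5969 in Mock muscle, and Col1a2 gave 6285 and 2771. With the authors' deposited values none of the endothelial and 5 of the fibroblast markers reached 2-fold. What part these markers had in the values of Ccl2, Ccl7, Cxcl1 and Lcn2 was not tested.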

How the data were processed

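The authors deposited a non-normalized table with the signal intensity and detection p-value of each of 22523 probes on each array, per the file headers, and a second table of intensity values that they made from the same arrays. The scanner software and the method behind the second table are not stated. Across probes it keeps the order of the non-normalized values on each array (Spearman rho 1); its medians were 137.5 (EA) and 137 (Mock), and its scale was taken as linear.

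Background of the non-normalized intensities was corrected with the nec function of limma 3.58.1 in R 4.3.3, which estimates it from the detection p-values, with an offset of 16. Quantile normalization and log2 followed. The platform annotation gave 1 gene symbol for 13793 probes, several for none and no symbol for 8730. Symbols were updated from the RefSeq gene table of GRCr8, 13752 through the gene identifier and 5 through the accession, while 36 stayed as annotated. Where a gene had several probes, as 425 genes did, the brightest was used. Tables and figures were made with Python 3.11.15, pandas 2.3.3 and matplotlib 3.10.9. With 1 array a group no test was made.

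The 10 genes and the lists were chosen with earlier results of these data known. Named genes were all 10, each list's genes at 2-fold and its highest and lowest, and the 5 other genes with the highest bounds among those detected on the EA array only; further genes were named after their values were seen, for their known role. Alternatives were no background correction, an offset of 50, scaling to the 75th percentile, the deposited values and detection under 0.05. Scaling to the 75th percentile of the probes detected on both arrays was added after seeing the data.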

Additional observations from a re-analysis of the deposited data

How the results depend on the processing

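No replicate could be left out and no paired analysis was possible because each group had 1 array. At a detection p under 0.05, 3 of the 10 genes were detected on the EA array only, against 4 under 0.01, and 1, Cxcl2, on the Mock array only, against 0 under 0.01. Over all named genes these shares under 0.05 were 4.83% and 2.17%. A value of 2-fold or more, higher in EA muscle, was reached by 4 of the 10, and 3 without background correction, with the deposited values or with an offset of 50, Lcn2 being the gene that dropped out. Over all genes detected on at least 1 array, the counts at 2-fold were 130 higher in EA muscle and 33 lower. They became 59 and 11 without background correction, 57 and 10 from the deposited table, 86 and 22 with an offset of 50, 113 and 47 scaled to the 75th percentile, and 158 and 25 scaled to that of the probes detected on both arrays. The 75th percentile scaling moved the median gene to -0.19 (log2), and that over detected probes to 0.01, from -0.06. Signal over background limits the 6 undetected genes, which have no fold here.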

Other observations

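Of 71 genes in the 5 lists of chemokines, receptors, NF-kappaB, interleukin 6 and other cytokines that were detected on neither array under 0.01, 5 (7.04%) would count as detected on the EA array only under 0.05, 1 (1.41%) on the Mock array only and 3 on both. Among the 7696 named genes detected on neither array, the shares were 6.41% for the EA array only and 3.27% for the Mock array only, so the share for the EA array was near that over all genes. The genes below are named after their values were seen. The 1 gene for the Mock array only was Cxcl13, a B cell attractant, with 134 in EA muscle, at a detection p of 0.172, and 147 in Mock muscle, at a detection p of 0.0242. Among the neutrophil markers, the protease gene Mmp9 likewise counts for the Mock array only, with 139 in EA muscle, at a detection p of 0.108, and 145 in Mock muscle, at a detection p of 0.0303. Of the 5 genes for the EA array only, Ppbp and Sele are the other two beside those that follow. Il1r2, the decoy receptor that captures Il1b, gave 155 on the EA array, with a detection p of 0.017, and 118 on the Mock array, with a detection p of 0.471. Tgfb1, a cytokine that restrains inflammation and promotes matrix formation, gave 151 on the EA array, with a detection p of 0.0255, and 109.7 on the Mock array, with a detection p of 0.756. Il18, a cytokine processed by the inflammasome, gave 149 on the EA array, with a detection p of 0.0352, and 127 on the Mock array, with a detection p of 0.206.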
